A study of Rattus norvegicus with 10 samples.

Results

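Thy1, Fap, Pdpn, Cd44, Mcam and Ncam1 encode proteins on the surface of fibroblasts and related mesenchymal cells, and their transcripts were followed in 5 lines of rat hepatic stellate cells. Each gene was represented by every probe set of the array that carries its symbol and no other, which gave 11 of 31099 probe sets, and all 11 were among the 27520 tested. Thy1, Cd44 and Mcam had 2 probe sets each, Ncam1 had 3, and Fap and Pdpn had 1. The 6 genes were chosen by their measured differences between clones and control lines, with earlier results of the same arrays known, so those differences are given here as a description and without a test.

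All 10 samples were HSC-2 cells, an established hepatic stellate line of the Wistar rat, grown in high-glucose medium with serum. The untransfected line and a line transfected with a scrambled sequence served as controls, and 3 lines, S1, S4 and S5, were clones transfected to overexpress rno-miR-146a. Each line was sampled at passages 42 and 43, so that 10 arrays were available and every clone was a single isolate. Separate cultures are not stated for the passages, so a p-value here reflects only how far the samples of a line lay from each other, and that spread may be technical. The promoter of the construct is not given in the sources used here.

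Hepatic stellate cells are the pericytes of the liver sinusoid, and after injury they turn into contractile, matrix-producing myofibroblasts. Fibroblast surface proteins are used to sort and to tell apart such cells. Thy1 (CD90) is a small glycoprotein held by a lipid anchor that binds integrins and separates portal fibroblasts from quiescent stellate cells. Fap is a membrane serine protease that appears on activated fibroblasts. Pdpn, or podoplanin, is a mucin-like protein of lymphatic endothelium, mesothelium and stromal fibroblasts that links the membrane to the actin cortex. Cd44 is the main hyaluronan receptor, Mcam (CD146) is an adhesion molecule of pericytes and smooth muscle, and Ncam1 (CD56) is a neural adhesion molecule that activated stellate cells and portal fibroblasts can carry.

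The microRNA that separates the clones from the control lines by their labels is shown first, with its seed, bases 2 to 8 from the 5′ end, in capitals (RefSeq, GRCr8, minus strand, chr10:28350053-28350074). Below it stand the 250 bases before the start of Fap and of Pdpn, which differed in opposite directions between clones and control lines. Capitals there mark matches to GGGCGG, the GC box bound by Sp factors, and to CACCC, on either strand (RefSeq, GRCr8, minus strand, chr3:67616092-67616341 for Fap and chr5:160918960-160919209 for Pdpn).
rno-miR-146a-5p: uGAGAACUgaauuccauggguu
Fap: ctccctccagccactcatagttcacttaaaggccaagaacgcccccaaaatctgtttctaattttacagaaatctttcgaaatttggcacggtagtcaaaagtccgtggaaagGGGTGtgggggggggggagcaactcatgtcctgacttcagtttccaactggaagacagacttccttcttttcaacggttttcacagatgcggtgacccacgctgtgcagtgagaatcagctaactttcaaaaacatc
Pdpn: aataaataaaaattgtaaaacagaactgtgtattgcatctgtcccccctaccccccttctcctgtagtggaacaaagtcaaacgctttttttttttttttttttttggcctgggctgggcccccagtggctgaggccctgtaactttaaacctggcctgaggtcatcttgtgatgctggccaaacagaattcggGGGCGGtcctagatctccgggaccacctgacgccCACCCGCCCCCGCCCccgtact

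Promoter sequences were matched for 3 of the 6 genes, Fap, Pdpn and Cd44. The Pdpn stretch held GGGCGG at 3 places, starting 56, 19 and 13 bases before the start, the last 2 side by side and the middle one sharing bases with the CACCC match. Fap and Cd44 held none, and 30.5% of 33469 stretches of the same length held at least 1. Each of the 3 stretches held CACCC once, as did 49.2% of all stretches at least once. TATAAA and the AP-1 motif TGANTCA were in none of the 3, against 12.9% and 6.34% of all stretches. The E-box CANNTG was found at 2 places in Fap and 2 in Pdpn and was not found in Cd44, against 65.5% of all stretches with at least 1, and CAGAC, a core of Smad binding sites, was found once in Fap and not in the others, against 42.9%. Motifs were searched on both strands, and a match describes letters in this window only.

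The labelled cell type was set against its markers. Collagen and mesenchymal genes were bright on all arrays, with Col1a1 between 17936 and 24084 intensity units and Vim between 21124 and 24794. Intensity is the deposited linear value, and its lowest possible value, the floor, was 20. The 20 measured stellate cell genes summed to 104726 to 141374 units on the control arrays and 122006 to 130753 on the clone arrays. Desmin (Des) was between 86.4 and 187, while the retinoid esterase gene Lrat was at the floor on all 10 arrays and Gfap, Hgf, Reln and Ngfr were at 41.5 or below. Of markers of other cell types, those of blood and lymphatic endothelium summed to 1061 to 1256 units on the control arrays and 972 to 1120 on the clone arrays over 12 measured genes. The brightest of them were Eng at 373 to 561 units, Flt1 at 122 to 334 and Tek at 99.8 to 198 over all arrays. Lyve1 was at the floor throughout, Pecam1 at 29.6 or below and Prox1 at 64.9 or below. The 8 measured mesothelial genes summed to 1397 to 4819 and 2604 to 4948, with Upk1b and Wt1 the brightest and Krt19 at 23.9 or below. The sums were 9692 to 11752 against 4462 to 9418 for 11 genes of portal fibroblasts and smooth muscle, led by Fbln2, 661 to 770 against 659 to 731 for 15 macrophage and leukocyte genes with Cd163 at the floor, 498 to 567 against 563 to 596 for 11 hepatocyte genes with Cps1 at the floor, 1470 to 3370 against 1699 to 4858 for 7 biliary genes, in which Spp1 held most of the signal and Cdh1, Epcam and Cldn4 were at the floor, and 1286 to 3050 against 1270 to 2641 for 11 neural and glial genes with Gap43 at the floor. The brightest gene of the neural and glial list was Nefm, at 644 to 2404 units over all arrays. In the leukocyte and hepatocyte lists it was Laptm5, at 127 to 165, and Ttr, at 150 to 207. The part of other cell types in the results below was not tested.

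Thy1 was the member with the widest range. By its brighter probe set, 1369652_at, the untransfected arrays were at 5340 and 5740 intensity units at passages 42 and 43, and the scrambled arrays at 3346 and 3684. S1 read 105 and 86, S4 read 367 and 440, and S5 read 398 and 255. All 6 clone arrays thus lay far below all 4 control arrays, and S1 lay below the other 2 clones, whose arrays overlapped. S1 was 58.5-fold below the untransfected line and 37.1-fold below the scrambled line, a log2 difference of -5.87 and -5.21. For S4 these were 13.8-fold and 8.74-fold, or -3.78 and -3.13, and for S5 17.4-fold and 11.0-fold, or -4.12 and -3.46 (SE 0.21 for each, 2 arrays against 2). Such an SE of a clone from a control line comes from the limma fit, in which the 5 lines share the estimate of spread. It is therefore the same for each pair of lines.

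The other Thy1 probe set, 1369651_at, kept the order of the 5 lines. Its arrays were at 2038 and 2562 units in the untransfected line and at 1670 and 1669 in the scrambled line. S1 read 88 and 49, S4 read 174 and 234, and S5 read 223 and 130. Its differences were smaller, from -5.13 for S1 against the untransfected line to -3.05 for S4 against the scrambled line (SE 0.33).

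Fap, the protease, was lower in all 3 clones than in both control lines. The untransfected arrays were at 186 and 243 units and the scrambled arrays at 123 and 217. S1 read 41 and 43, S4 read 64 and 56, and S5 read 55 and 47. The clone arrays did not overlap the control arrays, the 2 control lines overlapped each other, and S4, S5 and S1 followed in that order without overlap. S1 was 5.06-fold below the untransfected and 3.89-fold below the scrambled line, S4 3.54-fold and 2.72-fold, and S5 4.18-fold and 3.22-fold (log2 -2.34 to -1.45, SE 0.25). Values under 64 made up 40.7% of all deposited values, so the Fap levels of the clones lay in the dim part of the table, and with 16 added to each value before log2 the S1 difference from the untransfected line was -1.98. Against the scrambled line the Fap differences depended on its passage. They were -2.37, -1.85 and -2.09 in S1, S4 and S5 without the scrambled array of passage 42 and -1.55, -1.04 and -1.28 without that of passage 43.

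Pdpn went the other way. The untransfected arrays were at 45 and 37 units and the scrambled arrays at 118 and 161. S1 was at 1215 and 1366, S4 at 1130 and 1277, and S5 at 439 and 512. S1 and S4 overlapped, S5 lay below them, and every clone array was above every control array. S1 was 31.4-fold above the untransfected and 9.32-fold above the scrambled line, S4 29.2-fold and 8.69-fold, and S5 11.5-fold and 3.43-fold (log2 1.78 to 4.97, SE 0.18). The S5 difference from the scrambled line was the smallest of the 6.

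**Figure D1:**
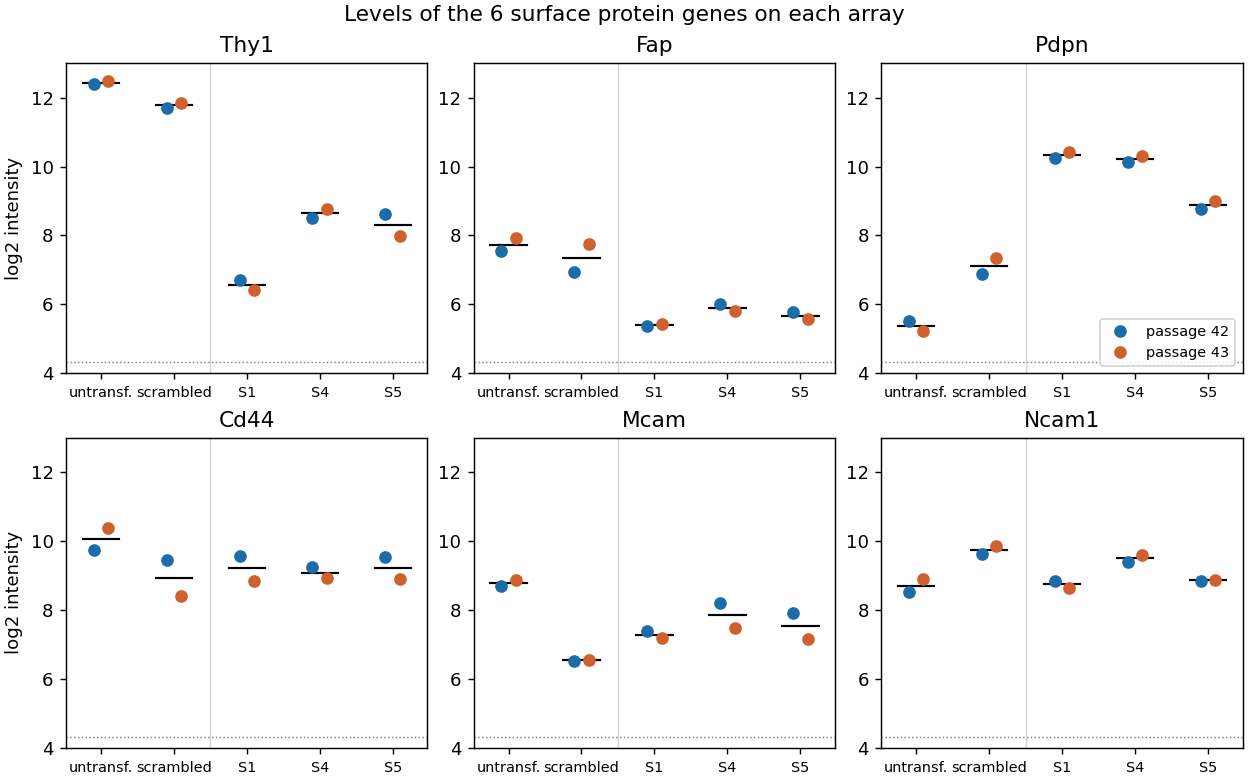
Log2 intensity of each gene by its brightest probe set on the 10 arrays, with the lines along the horizontal axis, passage 42 in blue, passage 43 in orange, the black bar at the mean of the 2 arrays and the dotted line at the floor. Thy1 and Fap lie lower and Pdpn higher in S1, S4 and S5 than in both control lines, while Cd44, Mcam and Ncam1 have all clone arrays within the range of the control arrays.

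On line means, with the line as the unit, Thy1 was at 7.84 ± 1.12 (SD, n = 3 clones) and 12.11 ± 0.46 (SD, n = 2 control lines) on the log2 scale, a difference of -4.26 with an SE of 0.87. Fap was at 5.66 ± 0.26 and 7.54 ± 0.27, a difference of -1.89 (SE 0.24), and Pdpn at 9.82 ± 0.81 and 6.24 ± 1.24, a difference of 3.58 (SE 0.89). For Pdpn the 2 control lines lay farther apart than the clones did. Cd44, Mcam and Ncam1 differed by -0.33 (SE 0.43), -0.11 (SE 0.86) and -0.19 (SE 0.49), each within its SE.

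Cd44, Mcam and Ncam1 had clone levels that sat on different sides of the 2 control lines. For Cd44, probe set 1368921_a_at read 862 and 1325 units in the untransfected line and 700 and 336 in the scrambled line. S1 read 766 and 455, S4 read 604 and 483, and S5 read 742 and 478, so the clones overlapped each other and the scrambled line. The clones were 1.81-fold, 1.98-fold and 1.80-fold below the untransfected line (SE 0.41 on the log2 scale) and 1.22-fold, 1.11-fold and 1.23-fold above the scrambled line, the latter within the SE. Probe set 1387952_a_at gave 1.52-fold, 1.77-fold and 1.60-fold below the untransfected line, with arrays of neighbouring lines overlapping in every step of the order. Probe sets whose names end in _a_at match several transcripts of a gene, and splice forms of Cd44 were not told apart.

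For Mcam, probe set 1374933_at read 417 and 464 units in the untransfected line and 92 and 95 in the scrambled line, with the clones in between. S1 read 166 and 145, S4 read 296 and 178, and S5 read 242 and 142, and S4 and S5, like S5 and S1, overlapped each other. S1, S4 and S5 were thus 2.83-fold, 1.92-fold and 2.38-fold below the untransfected line and 1.66-fold, 2.46-fold and 1.99-fold above the scrambled line (SE 0.29 on the log2 scale). The second Mcam probe set, 1369793_a_at, had the same order of lines.

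For Ncam1, probe set 1368320_at read 370 and 473 units in the untransfected line and 785 and 933 in the scrambled line. S1 read 463 and 402 and S5 463 and 471, both at the level of the untransfected line, while S4 read 671 and 777. S4 was 1.73-fold above the untransfected line and 1.18-fold below the scrambled line, and S1 and S5 were 1.98-fold and 1.83-fold below the scrambled line (SE 0.16 on the log2 scale). Probe set 1379389_at had arrays at 430 and 573 units in the scrambled line, 312 and 395 in S4, and between 207 and 253 elsewhere, and 1377368_at lay between 64 and 118 on all arrays.

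**Figure D2:**
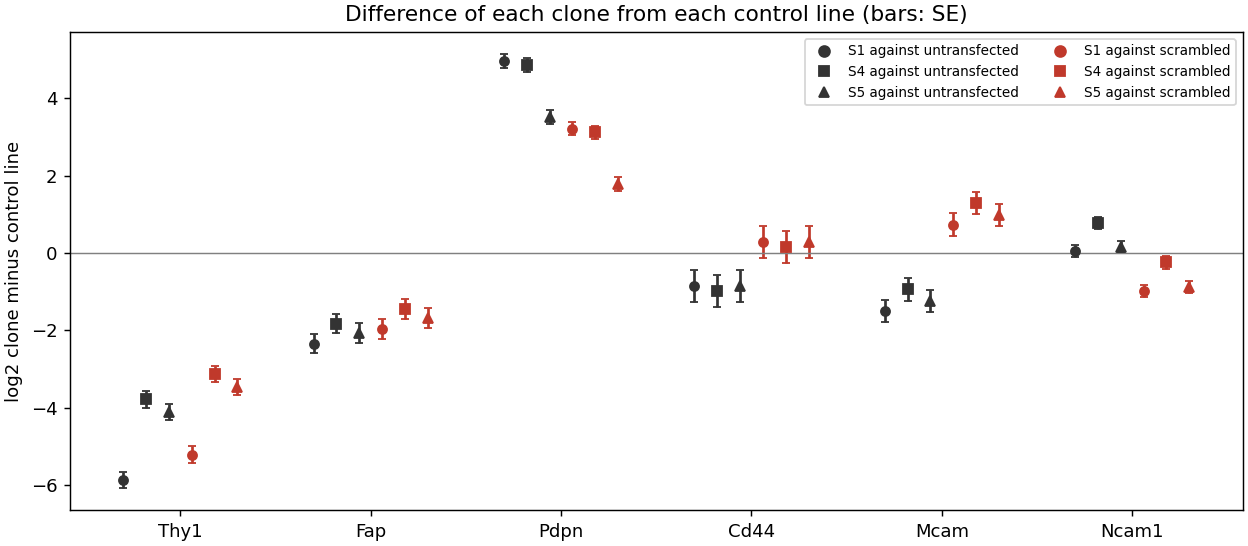
Log2 difference of each clone (circle S1, square S4, triangle S5) from the untransfected line (black) and from the scrambled line (red), by the brightest probe set, with bars of 1 SE. Thy1 and Fap are below 0 and Pdpn above 0 against both control lines, and for Cd44, Mcam and Ncam1 the sign depends on the control line.

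Because these contrasts were used in choosing the genes, the calls in them are only counted and are no test of the genes. By limma with Benjamini-Hochberg adjusted p under 0.05, Thy1 and Fap were lower and Pdpn higher in all 6 comparisons. Of all tested probe sets, 0.243% were lower and 0.411% higher in all 6. Mcam was also lower in S1 against the untransfected line, and Ncam1 was higher in S4 against the untransfected line and lower in S1 and S5 against the scrambled line. Of all tested probe sets, 2.06% were higher and 2.32% lower in S1 against the untransfected line, and 2.38% and 1.81% against the scrambled line. For S4 the shares were 1.82% and 1.71%, and 2.27% and 1.37%, and for S5 1.68% and 1.95%, and 1.99% and 1.45%. All 6 clone arrays lay below all 4 control arrays for 3.44% of tested probe sets, Thy1 and Fap among them, and above for 4.06%, Pdpn among them.

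The control lines were then compared with each other. This contrast was not itself used to choose the genes, but it follows from the differences of a clone from each control line. Those differences helped to choose the genes, so the p-values below are not independent of the choice. Pdpn, Ncam1 and Mcam differed between the control lines. Pdpn was 3.36-fold higher in the scrambled line (log2 1.75, SE 0.18, limma adjusted p = 0.00223), both arrays above both untransfected arrays. Ncam1 was 2.05-fold higher (log2 1.03, SE 0.16, limma adjusted p = 0.0106). Mcam was 4.72-fold lower (log2 -2.24, SE 0.29, limma adjusted p = 0.00585). The second probe sets gave 2.29-fold higher for Ncam1 (limma adjusted p = 0.00688) and 3.31-fold lower for Mcam (limma adjusted p = 0.0309), while Ncam1 probe set 1377368_at was at 1.33-fold (limma adjusted p = 0.143).

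Thy1, Fap and Cd44 did not pass between the control lines. Thy1 was at -0.66 (95% interval -1.15 to -0.17, limma adjusted p = 0.117) and its arrays did not overlap, Fap at -0.38 (-0.96 to 0.21, limma adjusted p = 0.426) and Cd44 at -1.14 (-2.09 to -0.18, limma adjusted p = 0.154). The 3 of 6 genes called compare with 2.23% of tested probe sets higher and 3.87% lower in the scrambled line. The Mcam call was lost without the untransfected array of passage 43 (limma adjusted p = 0.0610) or the scrambled array of passage 42 (0.0507), and the Ncam1 call without the scrambled array of passage 43 (0.0592). The interval covers the spread between passages only.

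Among the clones, Thy1 and Pdpn had the widest ranges, 2.09 and 1.44 on the log2 scale, against 0.74 for Ncam1, 0.56 for Mcam, 0.52 for Fap and 0.14 for Cd44. Clone levels were known when the genes were chosen. In the F test across the 3 clones 0 of 6 genes passed by limma, with Thy1 at adjusted p = 0.0509 and Pdpn at 0.102, and 3 genes, Thy1, Pdpn and Ncam1, had an unadjusted p under 0.05. So did 749 of the 27520 tested probe sets. After adjustment, only 0.0327% of tested probe sets passed the F test. With passage as a replicate block, Thy1 passed it (limma adjusted p = 0.0477). It also did with median centring (0.0338), with trend and robust eBayes (0.0243) and with probe sets of at least 64 on at least 2 arrays (0.0273). Thy1 did not pass without a filter (limma adjusted p = 0.376), with quantile normalisation (0.0631) or with a pseudocount of 16 (0.0985). Among fits without 1 array, it passed only without an S5 array.

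By pairs of clones, Thy1 was 4.25-fold lower in S1 than in S4 (log2 -2.09, SE 0.21, limma adjusted p = 0.0325), the only gene of the 6 called in any pair. Against S5 it was 3.37-fold lower in S1 (limma adjusted p = 0.147). S4 and S5 differed in Thy1 by 0.34 (95% interval -0.15 to 0.82). Pdpn was 2.72-fold higher in S1 and 2.53-fold higher in S4 than in S5 (limma adjusted p = 0.147 and 0.170), and S1 and S4 differed by 0.10 (-0.31 to 0.51). The shares of tested probe sets called were 0.0327% for S1 against S4, 0.0145% for S1 against S5 and 0.0254% for S4 against S5. The second Thy1 probe set was at -1.62 between S1 and S4 (limma adjusted p = 0.373). The S1 and S4 difference in Thy1 was not called in 8 of 10 fits without 1 array, namely those without an array of the untransfected, scrambled, S1 or S4 line (limma adjusted p = 0.157 to 0.438, log2 -2.23 to -1.94).

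Between passages, with line as a block, 0 of 6 genes passed by limma and 0 had an unadjusted p under 0.05, against 2.43% of tested probe sets higher and 3.09% lower at passage 43. The lowest limma adjusted p were 0.310 for Mcam at -0.30 (95% interval -0.66 to 0.06) and 0.316 for Cd44 at -0.43 (-0.95 to 0.09). Thy1, Fap, Pdpn and Ncam1 were at -0.09, 0.17, 0.14 and 0.13.

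The difference of Cd44 between passages had opposite signs in different lines. From passage 42 to 43 it was 1.54-fold higher in the untransfected line and lower in the other 4, at 0.481, 0.594, 0.800 and 0.644 of the passage 42 level in the scrambled line, S1, S4 and S5. The second Cd44 probe set gave 2.29-fold in the untransfected line and 0.449, 0.600, 0.701 and 0.583 in the others. Mcam probe set 1369793_a_at followed the same signs, at 1.83-fold against 0.778, 0.822, 0.646 and 0.630, whereas the brighter 1374933_at was at 1.11-fold and 1.03-fold in the 2 control lines and 0.869, 0.600 and 0.586 in the clones. Signs of this kind were found in 5.92% of tested probe sets. Without either untransfected array, which leaves that line out of the passage estimate, Cd44 at passage 43 was at -0.69 (SE 0.12) against passage 42. The line left out is the one already seen to have the opposite sign, so this value is no test of a passage difference.

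**Figure D3:**
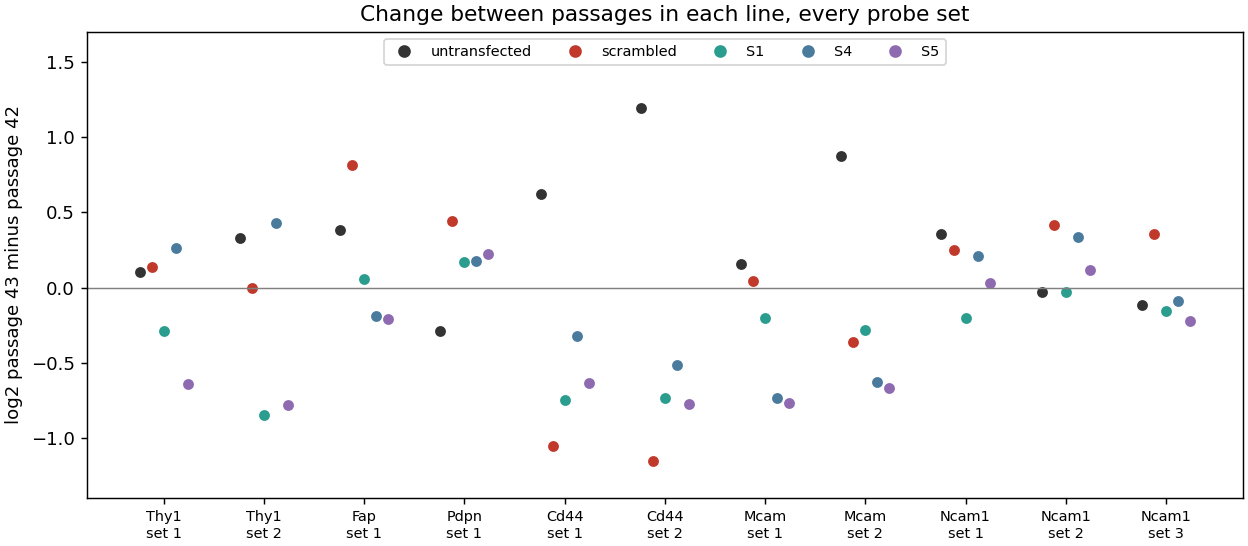
Log2 change from passage 42 to passage 43 for each of the 11 probe sets, with 1 point per line and probe sets of a gene numbered from the brightest. Both Cd44 probe sets and the second of Mcam are above 0 in the untransfected line (black) and below 0 in the scrambled line and the 3 clones.

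Over the 10 arrays, which share 5 lines, the brightest probe sets of Thy1 and Fap correlated at Pearson's r = 0.963, and Pdpn with them at -0.926 and -0.909, values that the separation of clones from controls fixes. Cd44 and Mcam correlated at 0.732 and Mcam and Ncam1 at -0.551. These values describe the arrays and carry no test.

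The genes with the most similar pattern were taken from 3447 probe sets of other genes with a range of at least 1 log2 unit. Nearest to Thy1 were Star, which moves cholesterol into mitochondria (r = 0.966), Bcar3 (0.958) and Lhfpl2 (0.958). Star read between 930 and 1731 units on the control arrays and between 97 and 196 on the clone arrays. Nearest to Fap were Sphk1, a sphingosine kinase (0.979), Ampd3, an AMP deaminase (0.978), and Cryl1 (0.976). Nearest to Pdpn were Spata13 (0.969), Fmnl2, a formin (0.962), and Amot, angiomotin (0.959), and Amot read between 728 and 1810 on the control arrays and between 2099 and 3127 on the clone arrays. Nearest to Cd44 were the cytokine gene Il7 (0.979), Ccnc, cyclin C (0.973), and Rala, a small GTPase (0.964). Nearest to Mcam were Cnn1, calponin 1 (0.982), Ebf1, a transcription factor (0.974), and Lmod1, leiomodin 1 (0.963). Cnn1 read 610 and 699 units in the untransfected line, 56 and 40 in the scrambled line and 109 to 448 in the clones. Nearest to Ncam1 were Nxf7 (0.929), Fndc5 (0.927) and Gfra1, a receptor of glial cell line-derived neurotrophic factor (0.913).

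In the gene table of assembly GRCr8, Thy1, Mcam and Ncam1 lie on 1 chromosome, with 4 protein-coding genes between Thy1 and Mcam and 80 between Mcam and Ncam1. Of those 4, Usp2, a deubiquitinase, was lower in 3 of the 6 comparisons of clones with control lines by limma, and Mfrp, C1qtnf5 and Rnf26 were called in none. Usp2 read 184 to 301 units on the control arrays and 132 to 167 on the clone arrays. These neighbours were examined after the values of the members were seen.

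Proteins that bind the 6 gene products, and other surface proteins of fibroblasts, were counted in the same 6 comparisons. Over 7 lists, 132 genes were measured. By limma 2 were higher (Alcam, Gpc6) and 3 lower (Itgb3, Cd248, Ly6e) in all 6 comparisons, 1.52% and 2.27%, against 0.411% and 0.243% of all tested probe sets. The list shares are over genes, each by its brightest probe set. The other shares are over all probe sets, also dimmer ones and those with no symbol, so the units differ. With passage as a replicate block the higher genes were 3, with Nrg1 added, and the lower genes 5, with Srgn and Il1rl1 added. These counts rested on single arrays. Alcam was not called higher in all 6 in any fit without 1 array, nor with quantile normalisation or a pseudocount of 16. Gpc6 kept this call only without the untransfected or the scrambled array of passage 42. Cadm1 gained it without an untransfected array, and Cd55 and Epha2 without the scrambled array of passage 42. Itgb3, Cd248 and Ly6e all lost the lower call without the untransfected array of passage 43 or the S5 array of passage 42. Only Ly6e kept it without an S4 array, and only Cd248 without the S5 array of passage 43. In single comparisons 10 and 12 of the 132 were called higher and lower in S1 against the untransfected line, 13 and 9 in S1 against the scrambled line, 4 and 12, and 9 and 7, in S4, and 6 and 13, and 9 and 8, in S5. These were 3.03% to 9.85% higher and 5.3% to 9.85% lower. Of all tested probe sets, 1.68% to 2.38% were higher and 1.37% to 2.32% lower. The same background holds for the single comparisons of each list below. The median differences of the lists together were -0.02 to 0.02, and those of all tested probe sets -0.01 to 0.00.

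Among the 20 measured partners of Thy1, Itgb3, the beta 3 integrin chain of a Thy1 receptor, fell in all 6 comparisons and none rose in any. Itgb3 read 187 and 272 units in the untransfected line and 494 and 582 in the scrambled line, against 40 to 71 on the clone arrays, with log2 differences of -3.33 to -1.94. Clone and control arrays did not overlap, and the scrambled line was the highest (log2 1.25 above the untransfected line, SE 0.29, limma adjusted p = 0.0495). Of the 14 partners and relatives of Fap, 1, Spry1, a feedback inhibitor of growth factor signalling, fell against the untransfected line in each clone and 1, the integrin chain gene Itga3, rose against the scrambled line, both named after their values were seen. Dpp4, the closest relative of Fap, read between 30 and 54 on all arrays and was called in none.

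Of the 13 measured partners of Pdpn, 1, Ezr, which encodes the membrane and actin linker ezrin and was named after its values were seen, rose in S1 against the scrambled line and none was called in the other 5 comparisons. The 17 measured hyaluronan enzymes and other partners of Cd44 had 0 called the same way in all 6. The member called most often was Srgn, serglycin, a Cd44-binding proteoglycan, which fell in 5 and read 27 to 48 on the clone arrays against 118 to 881 on the control arrays. Of 12 partners of Mcam, Nrg1, neuregulin 1, rose in 5 (log2 0.94 to 1.39 over the 6) and read 163 to 259 on the control arrays and 412 to 578 on the clone arrays. Of 16 partners of Ncam1, 1 or 2 fell and none rose in each comparison, and none passed in all 6.

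Of 57 other fibroblast and mesenchymal surface proteins, 2 rose and 2 fell in all 6 comparisons. Alcam, an adhesion molecule of the immunoglobulin family related to Mcam, rose by 1.04 to 2.06 on the log2 scale, from 596 to 872 units on the control arrays to 1304 to 2886 on the clone arrays. Gpc6, a glypican, rose by 1.05 to 1.21, from 457 to 599 units to 1026 to 1272. Cd248, or endosialin, a pericyte and fibroblast marker, was at -3.85 to -1.31 and read 91 to 163 on the clone arrays, against 390 and 331 in the untransfected and 1334 and 1664 in the scrambled line. Ly6e, a lipid-anchored surface protein, was at -3.09 to -1.57, with 84 to 154 units on the clone arrays and 394 to 935 on the control arrays. These 4 genes, like Thy1, Fap and Pdpn, had clone arrays apart from the control arrays of both lines.

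Between the control lines, 5 of the 57 rose and 8 fell in the scrambled line, 8.77% and 14.0%, against 2.23% and 3.87% of all tested probe sets. Here too the list shares are over genes and the others over probe sets. The largest in each direction were Cdh11, a mesenchymal cadherin, at -4.23 (SE 0.40, limma adjusted p = 0.00174), Cd81, a tetraspanin, at -3.91 (SE 0.29, limma adjusted p = 0.000613), Vcam1, an adhesion molecule for leukocytes, at 3.86 (SE 0.67, limma adjusted p = 0.0178), and Cadm1, an adhesion molecule, at 3.60 (SE 0.37, limma adjusted p = 0.00240). Cd81 read 193 and 269 units in the scrambled line and 2796 to 4253 in the untransfected line and the clones. In Cdh11 the clone arrays read 936 to 2476 units, against 2510 and 2321 in the untransfected and 132 and 126 in the scrambled line. In Vcam1 they read 218 to 804, against 203 and 302 in the untransfected and 3146 and 4117 in the scrambled line. In Cadm1 they read 2141 to 3077, above 1441 and 1106 in the scrambled line and 166 and 66 in the untransfected line.

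**Figure D4:**
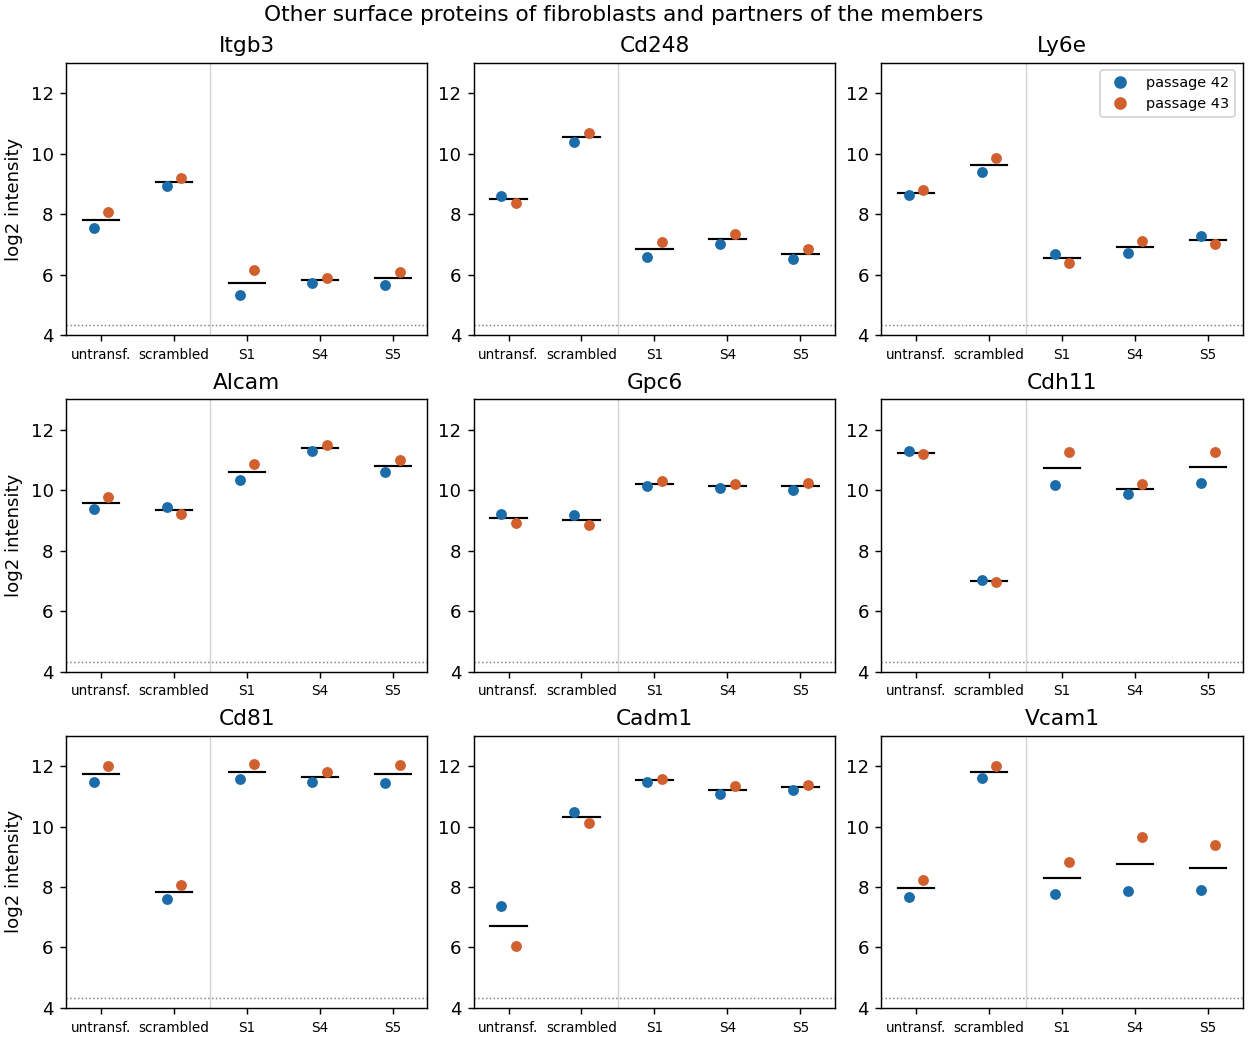
Log2 intensity on the 10 arrays of 9 genes of the lists, with passage 42 in blue, passage 43 in orange, the black bar at the mean of each line and the dotted line at the floor. Itgb3, Cd248 and Ly6e are lower and Alcam and Gpc6 higher in the 3 clones than in both control lines, while Cdh11, Cd81, Cadm1 and Vcam1 differ between the 2 control lines.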

How the data were processed

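The submitters' processing notes name RMA, with no version, for the deposited table, in which the authors give 1 intensity per probe set and array on a linear scale with a floor of 20. Whether values were returned from log2 is not given in the sources used here, and array medians lay between 97.7 and 104. Log2 of the deposited intensities was taken. Left out of the 31099 probe sets were 57 that are array controls and 3522 whose every value was the floor. Symbols came from the platform annotation, with 19202 tested probe sets having 1 symbol, 399 several and 7919 none. The gene table of GRCr8 matched 19142 of them by identifier.

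The model was fitted in R 4.3.3 by limma 3.58.1, with 1 coefficient per line on all 10 arrays (5 residual degrees of freedom), eBayes and Benjamini-Hochberg adjustment over 27520 probe sets, with a threshold of 0.05. The passage comparison took line as a blocking factor. The fit was tested on simulated data. The number of arrays limits the precision. The probe set of highest mean stood for a gene.

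The members, lists and tests were chosen with earlier results of these data known. From each list, up to 3 genes per direction called the same way in at least 4 of the 6 comparisons were named, Dpp4 always, and up to 2 per direction between the control lines. Alternatives covered filters, scaling, a pseudocount of 16, eBayes with trend, the probe set, leaving out each array, and passage as a replicate block. Passage deviations of all 10 pairs of lines correlated at 0.136 to 0.648 over probe sets, so passage number was read as pairing arrays across lines. Apart from the passage comparison, the fit behind the reported values has no passage term, and the block is an alternative.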

Additional observations from a re-analysis of the deposited data

Results flagged for a closer look

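The difference of Cd44 between passages had opposite signs in different lines, at 0.62 on the log2 scale in the untransfected line, against -1.06 to -0.32 in the other 4 lines, and at 1.19 against -1.15 to -0.51 with its second probe set. The second Mcam probe set was at 0.88 against -0.67 to -0.28. There is 1 array per line and passage, and the difference between lines was not tested.

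Thy1 was lower in S1 than in S4 by -2.09 (SE 0.21, limma adjusted p = 0.0325 in the test of the difference), with the clone levels known when the gene was chosen. The adjusted p ranged from 0.0149 to 0.438 over the alternatives.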

How the results depend on the processing

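No difference of a clone from a control line changed direction among those called. Over all alternatives, Thy1 lay between -6.02 and -3.00, Fap between -2.53 and -1.04 and Pdpn between 1.56 and 5.11, while Cd44 against the scrambled line changed sign without that line's array of passage 43 (-0.25, -0.37 and -0.23 in S1, S4 and S5). Each clone's Cd44 difference from the scrambled line also changed sign without its own array of passage 42 (-0.092, -0.007 and -0.023 in S1, S4 and S5). By the second Cd44 probe set, S4 against the scrambled line was at -0.03 in the main fit. The number of members called between pairs of clones (1) fell to 0 without a filter and with a pseudocount of 16, and was 0 to 1 without 1 array. In the F test among clones it was 1, in place of 0, with probe sets of at least 64 on at least 2 arrays, with median centring, with trend and robust eBayes and with passage as a replicate block, and 0 to 1 without 1 array. Between passages it was 0 to 1 without 1 array. Listed genes higher in all 6 comparisons (2) were 0 without a filter, 1 with quantile normalisation, 1 with the pseudocount, 3 with the replicate block, and 0 to 3 without 1 array. Those lower (3) were 1 without a filter, 5 with the replicate block and 0 to 4 without 1 array. A fit without 1 array assumes that the lone array of that line varies like the others. The replicate block changed no other call given above for the members. The cause of these changes was not tested. Dim signal limits Fap in the clones and Pdpn in the untransfected line.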
